A study of Mus musculus with 9 samples.

Results

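DNA replication and the S phase of the cell cycle are represented here by 45 genes, from the factors that mark replication origins to the enzymes that make nucleotides. They were taken by symbol from a deposited table of 23134 genes, and all 45 reached the minimum set for testing, a mean of at least 10 normalized counts over the 9 libraries, as did 16575 genes in all. Orc1 reached it only through the LPS groups, since its mean in the saline libraries was 3.78. The RNA came from CD11b-bearing cells, labelled microglia (the resident macrophages of the brain), which were drawn on magnetic beads from dissociated mouse cortex and hippocampus once astrocytes had been removed. There were 3 groups of 3 libraries from mice aged 2 to 3 months: control mice given saline, control mice given 5 mg/kg lipopolysaccharide (LPS, a bacterial cell wall component that provokes inflammation), and mice in which the chromatin remodeller gene Chd8 was conditionally knocked out in astrocytes (cKO), given the same LPS. Brains were taken 72 hours (3 days) after injection.

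The knockout was made in astrocytes, so the sorted cells are not those in which Chd8 was targeted, and what drives the deletion is not given in the sources used here. Sorted cells of cKO mice without LPS were not analysed here, so in cKO LPS against control saline the genotype and the LPS cannot be told apart. Saline appears in the title of all 9 samples, and the cKO titles also call the group cKO saline, whereas the cKO genotype and treatment labels and the names of the authors' comparisons say LPS, which was used. Nothing in the labels says that the samples of a group came from separate mice, so p-values measure only the spread between these samples, which may be technical. In bulk RNA, a larger share of dividing cells and more of a transcript per cell cannot be told apart.

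Replication starts in 2 steps. In G1 phase the origin recognition complex, with Cdc6 and Cdt1, loads the ring of Mcm2 to Mcm7 onto DNA in an inactive form. At the entry to S phase, Mcm10, Cdc45 and the GINS complex turn that ring into a moving helicase, primase and the polymerases copy both strands, and the sliding clamp Pcna holds the polymerases on the template. Transcription of many of these genes rises at the G1 to S transition under the E2F factors once the retinoblastoma proteins release them. Adult microglia divide rarely at rest and can proliferate after an inflammatory stimulus.

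The libraries held 10845937 to 86571481 reads, with the smallest among the saline libraries and the largest in cKO LPS library 3. All 10 defining markers of microglia were tested, and their summed level was 810432 to 1227137 normalized counts in saline, 658180 to 774435 in control LPS and 624785 to 780836 in cKO LPS, so that both LPS groups lay below saline. All 10 log2 fold changes against saline were negative in each LPS group, with medians of -0.62 and -0.53. Of the 10 markers, 0 and 1 fell (limma adjusted p under 0.05), where 0.923% and 1.41% of all genes fell. Without overlap, 8 and 6 of the 10 lay below saline, as did 1364 and 2287 of all 16575 genes. The part of this lower level in the results below was not tested. CD11b is also carried by myeloid cells from the blood. Monocyte markers summed to 813 to 1614 normalized counts in saline, 3429 to 24685 in control LPS and 5021 to 14443 in cKO LPS. Neutrophil markers summed to 28959 to 49178, 70053 to 161812 and 52718 to 94802. Lymphoid markers were read as well. The 5 tested of 10 T and natural killer cell markers summed to 43.0 to 212, 453 to 3528 and 680 to 976 in these groups. The 6 tested of 7 B cell markers summed to 712 to 1588, 1051 to 1872 and 1612 to 1838. The part of these cells in the results below was not tested. Control LPS library 1 carried astrocyte transcripts, with the glutamate transporter gene Slc1a2 at 34073 normalized counts and at most 445 elsewhere. Chd8 was read at 4252 to 6596 normalized counts in saline, 5408 to 5842 in control LPS and 5214 to 6219 in cKO LPS, which does not check the deletion because it was made in other cells.

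A RefSeq promoter window (GRCm38.p6, the assembly also called mm10), from 250 bases before to 50 after the start of transcription, was matched for 37 of the 45 genes. The windows were searched on both strands for the E2F site, written as TTTCCCGC, TTTCGCGC, TTTGCCGC or TTTGGCGC. At least 1 such site was present for 15 of the 37 genes (40.5%), against 540 of the 12476 tested genes with a window (4.33%) and 704 of all 27025 genes with one (2.6%). The 7-base core without the first T was present for 67.6% of the 37 and 18.1% of tested genes. Other promoter elements were closer to the background: CCAAT for 62.2% against 42.3%, the GC box GGGCGG for 70.3% against 63.5%, and the cell cycle homology region searched as TTTGAA or TTCGAA for 16.2% against 17.0%. These elements can overlap one another, and a match is a description of the letters, not a bound site. The stretches below end at or just before a RefSeq start. They were picked for a site within 200 bases before the start, with at most 25 bases in a GENCODE M21 exon of the gene. The exon limit left out Cdc6, Mcm7 and Rfc3, which also carry a site there. Those shown precede an origin factor, a chromatin factor, 2 helicase subunits and a polymerase. Each runs 5′ to 3′ on the gene's own strand, with the matches to the E2F site in capitals.
Orc1 (chr4:108579254-108579447, plus strand): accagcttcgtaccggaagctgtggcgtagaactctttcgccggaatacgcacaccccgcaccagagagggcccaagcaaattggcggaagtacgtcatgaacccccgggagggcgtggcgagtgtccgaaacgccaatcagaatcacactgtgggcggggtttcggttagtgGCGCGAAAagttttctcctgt
Uhrf1 (chr17:56304113-56304312, plus strand): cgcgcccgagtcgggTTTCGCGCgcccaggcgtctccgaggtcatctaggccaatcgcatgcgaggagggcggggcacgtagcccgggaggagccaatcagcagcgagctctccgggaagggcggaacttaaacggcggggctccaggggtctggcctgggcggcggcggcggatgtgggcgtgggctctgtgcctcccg
Mcm5 (chr8:75109309-75109508, plus strand): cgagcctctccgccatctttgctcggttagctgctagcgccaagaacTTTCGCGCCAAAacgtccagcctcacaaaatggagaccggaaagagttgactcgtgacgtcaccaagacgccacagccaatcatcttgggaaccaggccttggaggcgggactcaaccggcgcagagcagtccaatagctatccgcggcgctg
Mcm6 (chr1:128359706-128359905, minus strand): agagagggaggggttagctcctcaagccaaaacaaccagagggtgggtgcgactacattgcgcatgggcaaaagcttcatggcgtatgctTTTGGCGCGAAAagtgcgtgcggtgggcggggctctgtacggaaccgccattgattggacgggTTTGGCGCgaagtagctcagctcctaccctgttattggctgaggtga
Pola1 (chrX:93632156-93632355, minus strand): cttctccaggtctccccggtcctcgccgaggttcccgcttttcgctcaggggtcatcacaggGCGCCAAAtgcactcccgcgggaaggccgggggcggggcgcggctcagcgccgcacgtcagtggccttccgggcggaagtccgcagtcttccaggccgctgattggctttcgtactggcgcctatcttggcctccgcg
The last 25 bases of the Orc1 stretch, which include its site, lie in an exon by GENCODE M21. Uhrf1 has 2 RefSeq windows: the stretch precedes the second start, and the window of the first holds no match to the E2F site. The Mcm5 stretch holds 2 matches that overlap on opposite strands, and the Mcm6 stretch holds 3, of which 2 overlap in the same way. The E2F site was present for 4 of the 11 genes with a window that rose in cKO LPS against control saline (Orc1, Cdc6, Uhrf1 and Clspn). Orc1 reached the minimum for testing only through the LPS groups, so its call is not taken as support. The site was present for 11 of the 26 that did not pass the test, among them Mcm3, Mcm5, Mcm6, Mcm7, Pola1 and Dnmt1. Tk1, Rrm2, Mcm10 and E2f1 have windows without a match, which says only that these letters are not in them.

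In saline, the level of these genes per kilobase of exon spread over a wide range. Pcna stood highest at 1130 normalized counts per kilobase, followed by the helicase subunit Mcm3 at 532, the single-strand binding subunit Rpa1 at 267, the maintenance DNA methyltransferase Dnmt1 at 260 and the clamp loader subunit Rfc2 at 224. At the other end stood Orc1 at 1.09, Mcm10 at 2.02, the exonuclease Exo1 at 2.22 and Cdc6 at 2.51. Subunits of 1 complex differed as well: the other helicase subunits lay between 52.7 (Mcm2) and 156 (Mcm7) normalized counts per kilobase. With LPS, Pcna and Mcm3 again stood highest, with Pcna at 1230 in control LPS and 1503 in cKO LPS and Mcm3 at 675 and 777. Genes of the lower end stood higher, with Mcm10 at 25.3 and 45.2, Cdc6 at 22.3 and 32.2, and Rrm2 at 137 and 300 from 11.8 in saline.

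**Figure D1:**
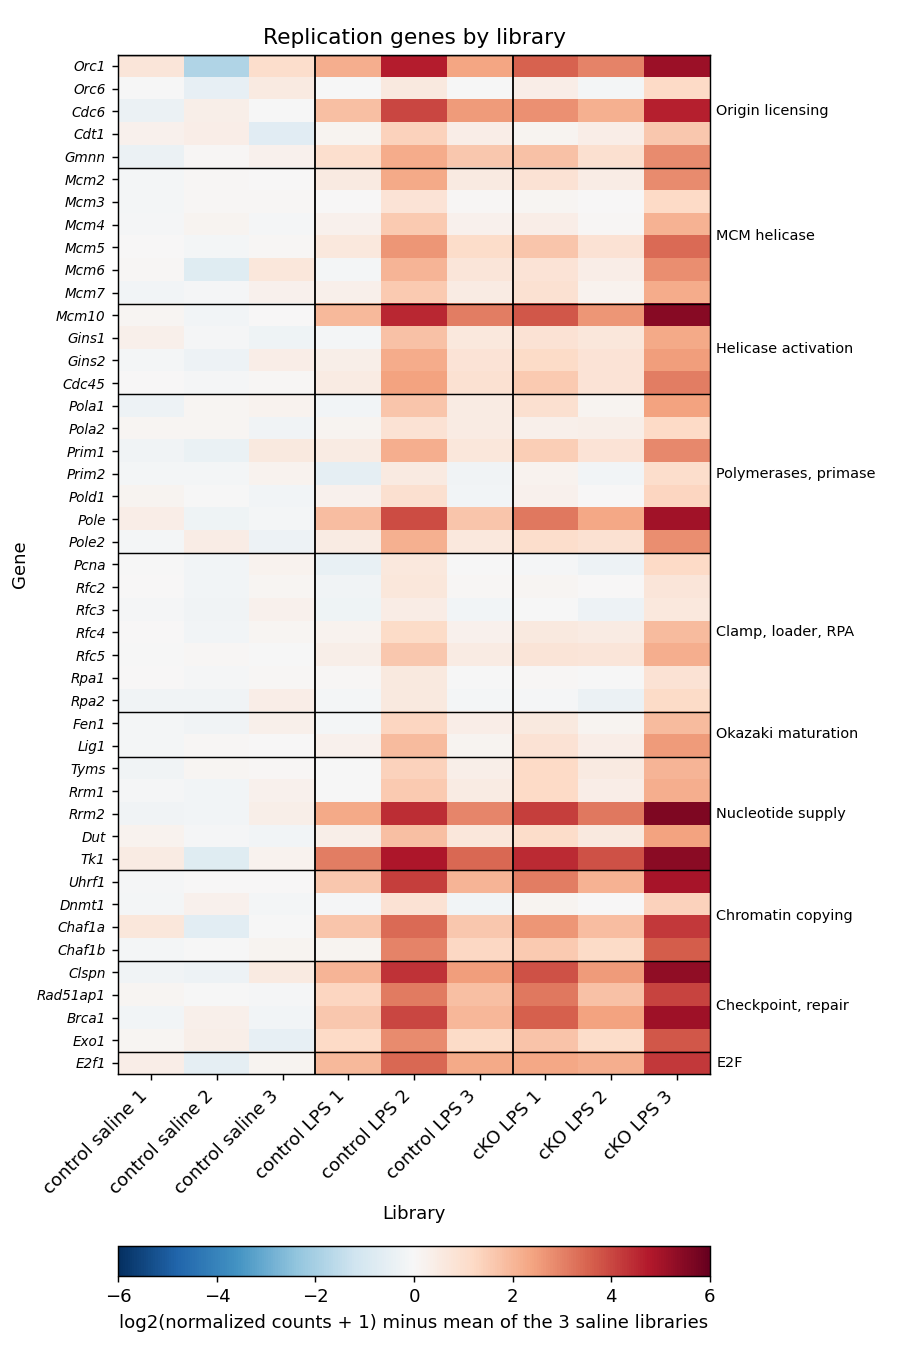
Level of the 45 replication genes (rows, grouped by role) in the 9 libraries (columns), as log2(normalized counts + 1) minus the mean of the 3 saline libraries, so that red is above and blue below saline. Control LPS library 2 and cKO LPS library 3 are the reddest columns of their groups in all 45 rows, and the role with the smallest median fold change is the clamp, loader and RPA.

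The effect of LPS in control mice was read from control LPS against control saline. Of the 45 replication genes, 4 rose and none fell (limma adjusted p under 0.05): Tk1, Rrm2, E2f1 and Mcm10. Among all genes tested 4.68% rose and 0.923% fell. The median log2 fold change of the 45 genes was 0.88, against 0.02 over all genes, and 44 of the 45 values were positive. Without overlap between the groups, 26 of the 45 genes were higher in control LPS, against 13.4% of all genes. The number that rose was 10 without control LPS library 1, which carried astrocyte transcripts (background 8.07%). It was 1 on leaving out any of the other 5 libraries in turn. The background was then 2.7%, 2.27% and 2.89% without saline libraries 1 to 3, 2.14% without control LPS library 2 and 1.92% without control LPS library 3, so 1 of 45 was no more than the share of all genes or close to it. The median was 0.41 without control LPS library 2. Leaving out control LPS library 2 and cKO LPS library 3 together gave 4 genes that rose, Tk1, Rrm2, E2f1 and Uhrf1, at a background of 1.77%. edgeR on recovered reads called 2 of the 45 higher (background 4.22%), a share close to that of all genes. The limma fit with the replicate block called 3 (background 4.77%). The authors' deposited table of the same comparison called 13 of the 45 genes higher, at a background of 7.75% higher. These were the 4 above with Brca1, Cdc6, Chaf1a, Clspn, Gmnn, Orc1, Pole, Rad51ap1 and Uhrf1. Orc1 reached the minimum only through the LPS groups, so its call is not taken as support.

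Among the 45 genes, those of nucleotide supply held the 2 smallest adjusted p-values of control LPS against control saline. Tk1, the thymidine kinase of the salvage pathway, was read at 76.0, 31.9 and 61.0 normalized counts in saline, at 455, 1541 and 588 in control LPS and at 1185, 755 and 2332 in cKO LPS. Every LPS library lay above every saline library, and the LPS groups overlapped. Its log2 fold change was 3.79 (SE 0.55, limma adjusted p = 0.00596) in control LPS and 4.57 (SE 0.55, limma adjusted p = 0.00211) in cKO LPS, each against saline. Rrm2, the regulated small subunit of ribonucleotide reductase, was read at 27.6, 29.1 and 41.7 in saline, at 162, 726 and 252 in control LPS and at 582, 294 and 1617 in cKO LPS. It too was higher in all 6 LPS libraries, with log2 fold changes of 3.22 (SE 0.67, limma adjusted p = 0.0249) and 4.30 (SE 0.67, limma adjusted p = 0.00679). Its partner Rrm1, the large subunit, was at 840, 802 and 1059 in saline, at 876, 2646 and 1241 in control LPS and at 2039, 1180 and 4017 in cKO LPS. Rrm1 did not pass the test against saline in either LPS group (log2 0.67 and 1.25), and control LPS library 1 lay within the saline range. Tyms, which makes thymidylate, and Dut, which removes dUTP, had log2 fold changes of 0.58 and 0.94 in control LPS, with 1.25 and 1.37 in cKO LPS, and did not pass either.

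Origin licensing genes differed among themselves. Cdc6, the loading ATPase, was read at 9.87, 16.6 and 12.8 normalized counts in saline, at 47.9, 222 and 80.9 in control LPS and at 93.0, 60.3 and 352 in cKO LPS. The saline libraries lay below all others, and Cdc6 rose in cKO LPS (log2 3.19, SE 0.72, limma adjusted p = 0.0306) but missed the threshold in control LPS (log2 2.80, limma adjusted p = 0.0567). Orc1, the largest subunit of the origin recognition complex, was at 4.94, 0 and 6.42 in saline, at 15.1, 92.3 and 17.5 in control LPS and at 40.0, 26.9 and 122 in cKO LPS. The saline values rest on 7 reads in all, and the rise in cKO LPS (log2 3.88, SE 0.98, limma adjusted p = 0.0476) had an adjusted p of 0.0617 in the limma fit with the replicate number as a block. Cdt1, the loader that is destroyed in S phase, was at 411, 452 and 215 in saline, at 385, 886 and 453 in control LPS and at 382, 453 and 1057 in cKO LPS. Its groups overlapped, and its log2 fold changes of 0.65 and 0.73 did not pass. Gmnn, the inhibitor of Cdt1, had log2 fold changes of 1.61 and 1.84 with no overlap between either LPS group and saline, and the second of these passed the limma fit with the block (adjusted p = 0.0487) but not the fit without it (limma adjusted p = 0.0543). Orc6, a further subunit, lay at 168 to 337 in saline, 229 to 351 in control LPS and 215 to 539 in cKO LPS.

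No subunit of the Mcm2 to Mcm7 ring passed the limma test in any comparison. The authors' deposited table called Mcm5 and Mcm2 higher in cKO LPS against control saline (Wald test adjusted p = 0.00295 and 0.0392). Mcm2 was read at 340, 384 and 375 normalized counts in saline, at 532, 1786 and 528 in control LPS and at 678, 496 and 2638 in cKO LPS. Mcm5 was at 319, 288 and 331 in saline, at 487, 1993 and 672 in control LPS and at 996, 578 and 3283 in cKO LPS. For both, the saline libraries lay below every LPS library, but 1 library per LPS group stood far above its partners, and the log2 fold changes of Mcm5 were 1.47 (SE 0.64, limma adjusted p = 0.258) and 1.98 (limma adjusted p = 0.108). Mcm4 was at 468, 543 and 469 in saline, at 589, 1479 and 588 in control LPS and at 656, 518 and 2069 in cKO LPS. Mcm6 was at 508, 298 and 783 in saline, at 455, 2030 and 808 in control LPS and at 874, 657 and 3357 in cKO LPS. Mcm7 was at 612, 644 and 809 in saline, at 842, 2058 and 963 in control LPS and at 1288, 801 and 3196 in cKO LPS. Mcm4 and Mcm7 did not overlap saline in control LPS but did in cKO LPS, and Mcm6 overlapped in both. Mcm3, the most abundant subunit per kilobase, was at 1811, 2080 and 2102 in saline, at 2006, 3497 and 2099 in control LPS and at 2183, 2057 and 4501 in cKO LPS. Outside control LPS library 2 and cKO LPS library 3, its LPS values lay in or near the saline range. The ring's median log2 fold change was 0.84 in control LPS and 1.23 in cKO LPS.

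Among the factors that activate the helicase, Mcm10 had the largest fold changes. This factor, which is needed to start unwinding, was read at 16.8, 13.9 and 16.0 normalized counts in saline, at 63.0, 384 and 136 in control LPS and at 217, 103 and 724 in cKO LPS. All LPS libraries were above all saline libraries, and it rose by log2 3.18 (SE 0.77, limma adjusted p = 0.0449) and 3.94 (SE 0.77, limma adjusted p = 0.0175). Gins1, a GINS subunit, was at 133, 102 and 89.8 in saline, at 97.7, 361 and 168 in control LPS and at 199, 174 and 517 in cKO LPS. It overlapped saline in control LPS only, and its log2 fold changes of 0.75 and 1.28 did not pass the test. Cdc45 had log2 fold changes of 1.27 and 1.83 and did not pass, and neither did Gins2, with 1.14 in control LPS. Of the exon bases of Gins2, 67.3% lie under another gene on the opposite strand, and whether counting used the strand is not given in the sources used here.

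Among polymerases, Pole, the catalytic subunit of the leading-strand polymerase, was read at 65.2, 41.6 and 44.9 normalized counts in saline, at 183, 756 and 160 in control LPS and at 451, 254 and 1674 in cKO LPS. It did not overlap saline in either LPS group and rose in cKO LPS (log2 3.52, SE 0.74, limma adjusted p = 0.0241), with log2 2.48 (limma adjusted p = 0.0969) in control LPS. Pold1, the catalytic subunit of the lagging-strand polymerase, was at 760, 669 and 594 in saline, at 791, 1320 and 599 in control LPS and at 813, 671 and 1661 in cKO LPS. Its groups overlapped, with log2 fold changes of 0.35 and 0.53 that did not pass. The remaining polymerase and primase genes, Pola1, Pola2, Prim1, Prim2 and Pole2, had log2 fold changes from -0.07 (Prim2, the large primase subunit, in control LPS) to 1.72 (Prim1, the small one, in cKO LPS), and none passed.

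The clamp, the clamp loader and the single-strand binding proteins had the smallest median fold change of the 10 roles, and none of the 7 genes passed the test. Pcna was read at 2633, 2403 and 3100 normalized counts in saline, at 1976, 4221 and 2660 in control LPS and at 2562, 2168 and 6090 in cKO LPS. Only control LPS library 2 and cKO LPS library 3 lay above the saline range, and the log2 fold changes of Pcna were 0.06 (SE 0.39, limma adjusted p = 0.958) and 0.26 (SE 0.39, limma adjusted p = 0.724). The sign was negative without control LPS library 2 in the first (-0.23), without saline library 2 in the first (-0.02), under quantile normalization in the first (-0.05), and without cKO LPS library 3 in the second (-0.19). Rfc5, a clamp loader subunit, was at 164, 176 and 167 in saline, at 213, 521 and 238 in control LPS and at 288, 282 and 772 in cKO LPS. It did not overlap saline, as did not Rfc4, but neither passed the test. Rpa1 was at 1496, 1416 and 1556 in saline, at 1543, 2259 and 1485 in control LPS and at 1566, 1455 and 2674 in cKO LPS. Over the 7 genes of this role the median log2 fold change was 0.19 in control LPS and 0.30 in cKO LPS. Pcna-ps2, a pseudogene of Pcna, had a mean of 11.4 normalized counts, so reads split to it are few beside those of Pcna.

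Of the enzymes that finish the lagging strand, the ligase Lig1 was read at 536, 599 and 584 normalized counts in saline, at 691, 2129 and 641 in control LPS and at 1036, 755 and 3345 in cKO LPS. It did not overlap saline, and its log2 fold changes of 0.78 and 1.27 did not pass. The flap endonuclease Fen1 had log2 fold changes of 0.52 and 0.88 and overlapped saline, with 84.2% of its exon bases under genes of the opposite strand.

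Factors that copy chromatin and DNA methylation behind the fork did not all pass, and differences between partners were not tested. Uhrf1, which reads hemimethylated DNA and recruits Dnmt1, was read at 86.9, 94.2 and 93.0 normalized counts in saline, at 284, 1615 and 374 in control LPS and at 787, 387 and 2829 in cKO LPS. All LPS libraries were above saline. Uhrf1 rose in cKO LPS (log2 3.37, SE 0.77, limma adjusted p = 0.032) and missed the threshold in control LPS (log2 2.59, limma adjusted p = 0.0937). Dnmt1 was at 1727, 2289 and 1733 in saline, at 1838, 3460 and 1709 in control LPS and at 2153, 1911 and 4917 in cKO LPS. Dnmt1 overlapped saline in both, with log2 fold changes of 0.22 and 0.52 that did not pass. Without control LPS library 2 the first of these was -0.10. Chaf1a, the large subunit of the histone chaperone CAF-1, rose in cKO LPS (log2 2.93, SE 0.68, limma adjusted p = 0.0351, and 0.0536 with the replicate block), with 52.5% of its exon bases under a gene of the opposite strand. Its partner Chaf1b, at log2 2.12 (SE 0.77), did not pass, while the authors' deposited table called both higher in cKO LPS against control saline.

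Fork protection and repair genes had the highest median of any role with more than 1 gene, 2.31 in control LPS and 3.34 in cKO LPS on the log2 scale. Clspn (claspin), which relays the replication checkpoint signal, was read at 28.6, 26.3 and 48.1 normalized counts in saline, at 139, 681 and 191 in control LPS and at 483, 196 and 1348 in cKO LPS. Brca1, which acts in recombination repair and protects stalled forks, was at 31.6, 44.3 and 32.1 in saline, at 110, 584 and 146 in control LPS and at 443, 192 and 1222 in cKO LPS. Rad51ap1, a DNA repair factor, was at 51.3, 45.7 and 44.9 in saline, at 118, 422 and 170 in control LPS and at 432, 164 and 804 in cKO LPS. In all 3 genes the LPS libraries lay above the saline libraries and the LPS groups overlapped. Clspn, Brca1 and Rad51ap1 rose in cKO LPS by log2 3.89, 3.69 and 3.00, with limma adjusted p = 0.0162, 0.0196 and 0.0194. In control LPS their log2 fold changes of 2.95, 2.54 and 2.09 missed the threshold, the nearest being Clspn at a limma adjusted p = 0.0526. Exo1 had log2 fold changes of 1.74 and 2.19 and did not pass.

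E2f1, the activating transcription factor of the G1 to S transition, was read at 104, 52.7 and 86.6 normalized counts in saline, at 304, 866 and 383 in control LPS and at 388, 357 and 1487 in cKO LPS. Every LPS library was above every saline library. E2f1 rose by log2 2.57 (SE 0.58, limma adjusted p = 0.0366) in control LPS and by 2.91 (SE 0.58, limma adjusted p = 0.0202) in cKO LPS.

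**Figure D2:**
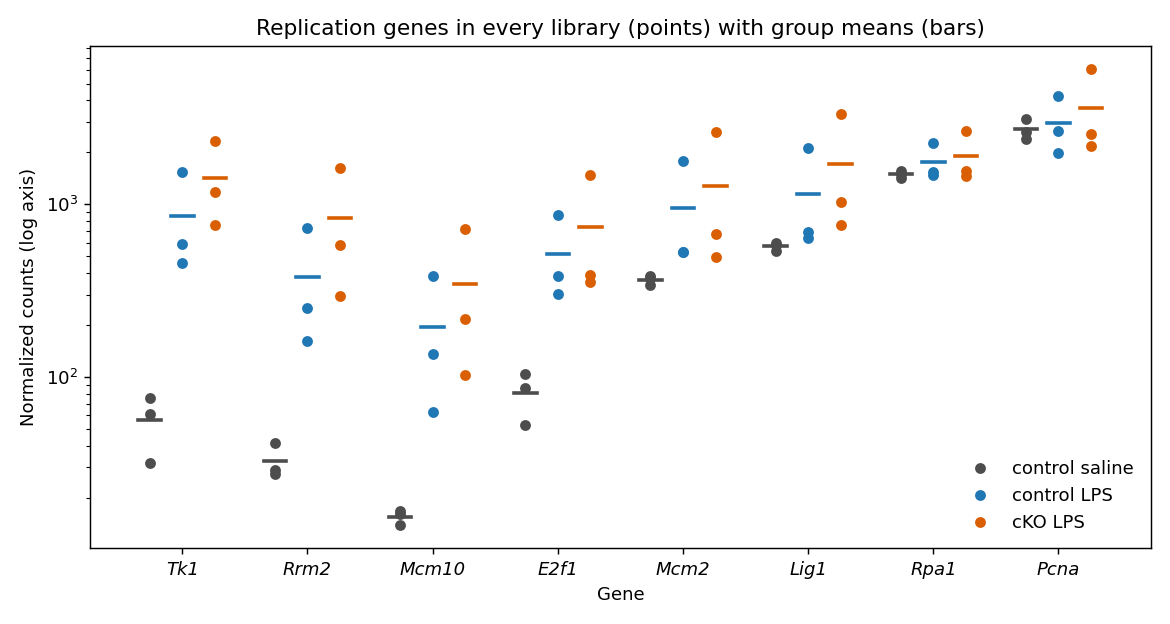
Normalized counts (log axis) of 8 replication genes in each of the 9 libraries, with a point per library and a bar at the mean of each group of 3. Tk1, Rrm2, Mcm10 and E2f1 show all 6 LPS points above the saline points, whereas the Pcna and Rpa1 points of the groups overlap.

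In cKO LPS against control saline, 12 of the 45 genes rose and none fell (limma adjusted p under 0.05), against 5.41% and 1.41% of all genes. These were Tk1, Rrm2, Mcm10, Clspn, E2f1, Rad51ap1, Brca1, Pole, Cdc6, Uhrf1, Chaf1a and Orc1. Orc1 passed the minimum only through the LPS groups, so its call is not taken as support, which leaves the other 11. All 45 values were positive, with a median log2 fold change of 1.34 against -0.01 over all genes. Without overlap, 29 of the 45 genes were higher than saline, against 17.9% of all genes. The count fell to 2 or 3 without any 1 saline library (background 3.41%, 3.05% and 3.55% without libraries 1 to 3). It fell to 3 without cKO LPS library 1 (background 2.77%) and to 3 without cKO LPS library 3 (background 2.6%), and it was 12 without cKO LPS library 2 (background 2.91%). At 2 of 45, without saline library 2, the share is not far from that of all genes, and at 3 of 45 it is above it by few genes. Rrm2 and Tk1 passed in all 6 of these fits, and Tk1 alone passed in all 6 for control LPS against control saline. The median was 0.80 without cKO LPS library 3. With control LPS library 2 and cKO LPS library 3 both left out, 11 genes rose at a background of 3.0%. edgeR called 11 (background 4.46%), and the limma fit with the replicate block called 11 (background 6.09%). The authors' deposited table of this comparison called 25 of the 45 genes higher, at a background of 8.74%. These were the 12 above with Gmnn, Mcm2, Mcm5, Gins2, Cdc45, Prim1, Pole2, Rfc5, Tyms, Rrm1, Dut, Chaf1b and Exo1. Where a gene is said not to pass, the limma test is meant. Control LPS and cKO LPS are set against the same saline libraries here, so the counts of 4 and 12 are not independent, and a count that is higher in one is no test between them.

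The genes that passed were mostly those at a low level in saline. Of the 15 genes with the lowest saline means (3.78 to 69.9 normalized counts), 3 rose in control LPS and 10 in cKO LPS, with median log2 fold changes of 2.48 and 3.19, where 4.68% and 5.41% of all genes rose. Orc1 is among these 10, and its call is not taken as support. Of the middle 15 (81.0 to 359), 1 and 2 rose, with medians of 0.75 and 1.25. Of the highest 15 (365 to 2712), none rose, with medians of 0.51 and 0.62. The saline level is part of the fold change, so this relation is a description and was not tested.

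**Figure D3:**
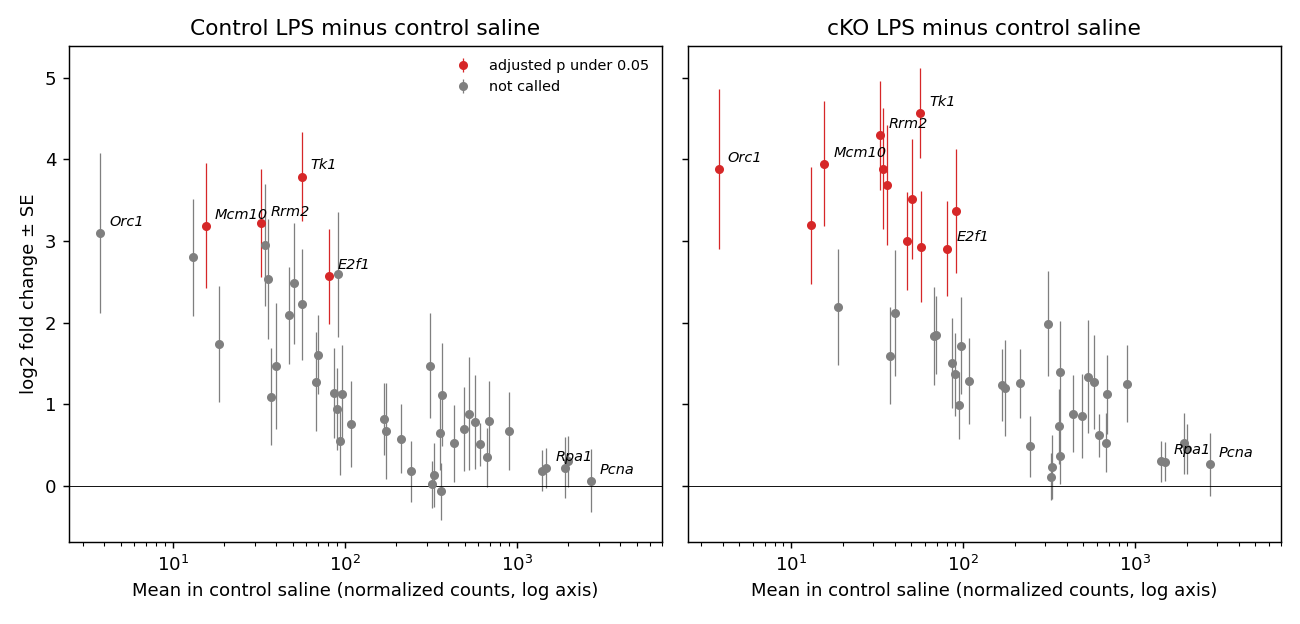
Mean normalized counts in saline (log axis) against the log2 fold change over saline for each of the 45 replication genes, for control LPS (left) and for cKO LPS (right), with bars of 1 SE and in red the genes with a limma adjusted p under 0.05. Points at the left, such as Mcm10 and Rrm2, lie highest, and points at the right, such as Pcna and Rpa1, lie near 0.

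The direct test of the astrocyte knockout under LPS is cKO LPS against control LPS. None of the 45 genes was called in it, and none of all 16575 genes was (0.0%, limma adjusted p under 0.05). At an unadjusted p under 0.05, limma gave 0 of the 45 genes, at a background of 1.59% in either direction. edgeR also called 0 of the 45, and DESeq2 called 0 of the 45 and 4 genes in all. The authors' deposited table called 0 of the 45 higher, at a background of 0.00439% higher. In each comparison its counts of genes higher and lower equal those of DESeq2 on recovered reads, so the deposited table and DESeq2 are not separate results. All 45 log2 fold changes were positive, with a median of 0.44 against -0.02 over all genes and a range from 0.08 (Rpa1) to 1.15 (Brca1, SE 0.74). For none of the 45 did the groups fail to overlap, against 2.7% of all genes above. The median depended on single libraries: it was -0.10 without cKO LPS library 3, 0.12 without control LPS library 1, 0.29 without control LPS library 3, 0.83 without cKO LPS library 2 and 1.00 without control LPS library 2. With control LPS library 2 and cKO LPS library 3 both left out it was 0.34. Control LPS library 1 carried astrocyte transcripts and was the lowest of its group in 36 of the 45 genes. The part of those transcripts in the median was not tested. Without cKO LPS library 3, 31 of the 45 values were negative. That fit kept control LPS library 2, the highest of its group in all 45 genes. The shared positive sign thus depends on which of these libraries are kept.

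The spread within each LPS group was shared by all 45 genes. cKO LPS library 3 was the highest of all 9 libraries in 45 of 45 genes. Control LPS library 2 came second in 44, the exception being Rad51ap1, where cKO LPS library 1 did, and cKO LPS library 1 came next in 36. Over all genes, control LPS library 2 was the highest of its group in 32.3% and cKO LPS library 3 in 39.9%. The ratio of control LPS library 2 to the mean of its 2 partners ranged from 1.44 to 5.67 with a median of 2.72, and that of cKO LPS library 3 to its partners from 1.58 to 4.99 with a median of 2.95. At the lower end, control LPS library 1 was the lowest of its group in 36 genes and cKO LPS library 2 in 43. Summed over the 45 genes, the libraries held 17891, 17910 and 19769 normalized counts in saline, at 19938, 49124 and 23146 in control LPS and at 29742, 22437 and 73420 in cKO LPS. The number of the 45 genes above all saline libraries was 27, 45 and 35 in control LPS libraries 1 to 3 and 38, 30 and 45 in cKO LPS libraries 1 to 3, against 27.8% to 32.3% of all genes.

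Several measured features moved with these libraries. cKO LPS library 3 was the deepest at 86571481 reads and control LPS library 2 the next at 52373652, while cKO LPS library 2, next in depth at 47274412, was lowest of its group in 43 of the 45 genes. The 10 monocyte markers summed to 24685 normalized counts in control LPS library 2, with 3429 and 12504 in its partners, and to 14443 in cKO LPS library 3 against 5021 and 6525. The 11 neutrophil markers were also highest of their group in control LPS library 2, at 161812, but lowest of their group in cKO LPS library 3, at 52718. Mpo, a marker of neutrophil precursors, which divide, was at 0 in all saline libraries, at 367, 221 and 157 in control LPS and at 156, 45.7 and 6.37 in cKO LPS, with the highest value of each group in library 1. The summed neutrophil precursor list was 1419, 7884 and 2352 in control LPS, with 1057, 895 and 4486 in cKO LPS, where 7 of its 9 genes were tested and 7 of the 9 were at 0 in at least 1 library. That sum was the highest of its group in control LPS library 2 and cKO LPS library 3, the libraries highest in the replication genes. Chil3 is in both this list and the monocyte list, so the sums are not independent, and a sum can rest on few genes. Mpo went the other way in cKO LPS library 3, where it was the lowest of its group. Microglial markers were at 658180 and 624785 in these libraries, the lowest sum of each group. The part of depth or of these cells in the spread was not tested.

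Other genes of cell division gave a further view of the same libraries. Of 30 genes of mitosis and the spindle, which act after replication, 27 rose in control LPS and 28 in cKO LPS against saline, with median log2 fold changes of 2.74 and 4.001, where 4.68% and 5.41% of all genes rose. Mki67, the nuclear antigen Ki-67 of cycling cells, was read at 190, 172 and 183 normalized counts in saline, at 1393, 5091 and 3122 in control LPS and at 8670, 4360 and 11225 in cKO LPS. cKO LPS library 1 thus stood above control LPS library 2 in Mki67, the reverse of their order in 44 of the 45 replication genes. Summed over the mitosis genes, the libraries held 9101, 24785 and 15459 in control LPS, with 40882, 19579 and 48388 in cKO LPS, against 2667 to 3057 in saline. The 3 with the smallest adjusted p in control LPS apart from Mki67 were Ccnb2, a mitotic cyclin (log2 3.95), Ube2c, a ubiquitin enzyme of mitotic exit (4.28), and Kif20a, a kinesin of cytokinesis (3.62). In cKO LPS against control LPS none of the 30 passed the adjusted threshold. At an unadjusted p under 0.05 limma gave 21, against 1.59% of all genes in either direction. All 30 values were positive, with a median of 1.18. Without overlap, only 2 of the 30 were higher, against 2.7% of all genes. The highest of all 9 libraries was cKO LPS library 3 in 22 of the 30 and cKO LPS library 1 in 8.

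**Figure D4:**
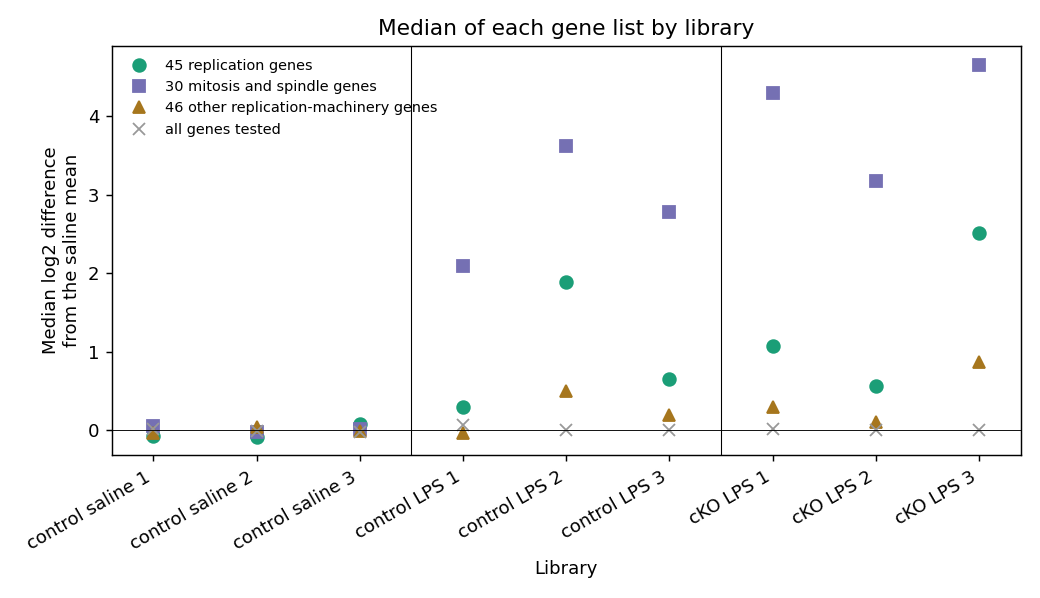
Median over genes of log2(normalized counts + 1) relative to the mean of the 3 saline libraries, in each of the 9 libraries, for the 45 replication genes, 46 other replication genes, 30 mitosis and spindle genes, and all genes tested, which stay near 0. The replication medians are 0.30, 1.89 and 0.65 for control LPS and 1.07, 0.57 and 2.51 for cKO LPS, and the mitosis medians 2.10, 3.62 and 2.78, then 4.30, 3.18 and 4.66.

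The rest of the replication machinery, 46 genes that include further origin, polymerase and topoisomerase genes, gave 3 that rose in control LPS and 6 in cKO LPS, none that fell, and median log2 fold changes of 0.28 and 0.37. Among all genes 4.68% and 5.41% rose, and the count of 3 is near the first share. Dna2, a nuclease and helicase that processes flaps and stalled forks, was at 106, 123 and 96.3 normalized counts in saline, at 727, 1931 and 1927 in control LPS and at 1433, 1413 and 3160 in cKO LPS. It rose by log2 3.68 in control LPS (SE 0.42, limma adjusted p = 0.00274), with libraries 2 and 3 at like levels, whereas library 2 was the highest of that group in each of the 45 genes. Top2a, the topoisomerase of dividing cells, rose by log2 3.69 and 4.94, and Samhd1, a dNTP hydrolase, rose by 0.97 in control LPS. Of 15 E2F and retinoblastoma family genes, 1 rose and 1 fell in control LPS and 2 rose in cKO LPS. The repressor E2f8 rose in both (log2 3.06 and 3.98), and E2f7 rose in cKO LPS (3.43). E2f3 fell in control LPS by 0.55 on the log2 scale, where 0.923% of all genes fell. Of 16 cyclins, kinases and inhibitors of the G1 to S transition, 1 rose in control LPS and 4 in cKO LPS. The S-phase cyclin Ccna2 rose in both (3.14 and 4.28), and Ccne1, Cdkn2c and Cdkn2a rose in cKO LPS. For both lists the count of 1 that rose in control LPS is near the share of all genes.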

How the data were processed

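The deposited signal, per the file headers a normalized count, was given by the authors for 23134 genes in 9 libraries. Divided by the smallest step in its library, each value came within 0.01 of a whole number (100.0% of values), and these whole numbers served as recovered counts. Per the submitters' processing notes the tools included Trimmomatic, STAR, featureCounts, RSEM, edgeR 3.30.3 and DESeq2, with build mm10; no source used here gives their roles or the strand setting. The authors' deposited tables of comparisons give log2 fold changes, a standard error score, p-values and adjusted p-values.

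Values were tested as log2(value + 1) with limma-trend (limma 3.58.1 in R 4.3.3), in 1 fit over 9 libraries with 6 residual degrees of freedom, Benjamini-Hochberg adjustment over 16575 genes with a mean of at least 10, and a threshold of 0.05. Fold changes on that scale understate those of low genes. edgeR 4.0.16 and DESeq2 1.42.0 on recovered reads, other pseudocounts, filters and scalings, a replicate block and each library left out were alternatives; leaving out control LPS library 2 and cKO LPS library 3 together was added after seeing the data. The script was checked on simulated counts. No replicate pair agreed within sampling noise (chi-square per degree of freedom 35.2 to 196).

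Replicate numbers come from the genotype labels. Deviations from group means correlated between same-numbered cKO LPS and control saline libraries (0.39, 0.24 and 0.35). Differently numbered libraries of these groups reached at most 0.08. The numbers were therefore taken to pair these groups, though the labels give only the numbers. The main fit left the numbers out, so its p-values for cKO LPS against control saline do not use this pairing. The replicate block applied them to all 9 libraries, control LPS included, so no fit paired only cKO LPS and control saline.

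The 45 genes and all lists were chosen with earlier results of these data known. Values in every library are given for the most abundant gene and the smallest adjusted p of each role, Pcna and Mcm2 to Mcm7; Rrm2, Orc1, Brca1, Rad51ap1 and Rpa1 were added after their values were seen. Coordinates, exon lengths and exon overlaps are from GENCODE M21 and promoter sequences from RefSeq GRCm38.p6, and 13 of the 45 genes share exon bases with a gene of the opposite strand.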

Additional observations from a re-analysis of the deposited data

How the results depend on the processing

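For control LPS against control saline, 929 genes and 4 of the 45 replication genes passed. DESeq2 gave 1770 and 13, edgeR gave 2 of the 45, and a fit to only the 2 groups gave 417 genes. Each library left out in turn gave 374 to 1826 genes and 1 to 10 of the 45, and leaving out control LPS library 2 and cKO LPS library 3 gave 331 genes. For cKO LPS against control saline, 1131 genes and 12 of the 45 passed, DESeq2 gave 2064 and 25, leaving out a library gave 490 to 709 genes and 2 to 12 of the 45, and leaving out the pair of libraries gave 574 genes. For cKO LPS against control LPS, the count of genes was 0, with 4 by DESeq2 and 1 in a fit to only the 2 groups, and the median of the 45 genes ran from -0.10 to 1.00 over the libraries left out. The cause of these differences was not tested.

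With each library left out in turn, the log2 fold change took both signs for 7 of the 45 genes in control LPS against control saline (Dnmt1, Orc6, Pcna, Prim2, Rfc2, Rfc3 and Rpa2), for 3 in cKO LPS against control saline (Pcna, Rfc3 and Rpa2) and for 31 in cKO LPS against control LPS. Among the genes followed through every alternative, the ranges over libraries left out were as follows. For control LPS against control saline, Pcna ran from -0.23 to 0.31, was -0.052 under quantile normalization and -0.23 without the pair of libraries, and Dnmt1 ran from -0.10 to 0.41 and was -0.10 without the pair. For cKO LPS against control saline, Pcna ran from -0.19 to 0.55 and was -0.19 without the pair. For cKO LPS against control LPS, Mcm2 ran from -0.45 to 0.86, Mcm6 from -0.26 to 1.04, Pcna from -0.25 to 0.50 and Uhrf1 from -0.01 to 1.54. Quantile normalization moved the median of all genes to -0.10 in control LPS against control saline, with the 45 genes at 0.70.

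With the replicate block, 3 of the 45 genes passed in control LPS against control saline, where Mcm10 missed (adjusted p = 0.0569, limma), and 926 genes in all. In cKO LPS against control saline it was 11 and 1286, and in cKO LPS against control LPS 0 and 0. Same-numbered libraries of control LPS correlated in their deviations with saline at 0.37, 0.08 and 0.23 and with cKO LPS at 0.47, -0.07 and 0.22. Differently numbered libraries reached 0.18 with saline and 0.31 with cKO LPS, so the numbers of control LPS were not taken as pairs. Depth limits the genes low in saline, such as Orc1 with 7 reads there.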
